A study of Mus musculus with 35 samples.

Results

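The Sprr and Lce genes, 2 families of small cornified envelope proteins, were followed across 35 RNA-seq libraries of sorted mouse epithelial cells. Members were taken by name: every gene whose symbol begins with Sprr or Lce followed by a digit, with pseudogenes marked -ps left out. Of 38 such names 2 were pseudogenes, which left 36 members among the 47436 gene names found in every library's table. They are 15 Sprr genes (Sprr1a, Sprr1b, 11 Sprr2 genes, Sprr3 and Sprr4) and 21 Lce genes (14 Lce1, 6 Lce3 and Lce6a).

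When a keratinocyte of the skin or mouth leaves the basal layer and differentiates, it replaces its plasma membrane with the cornified envelope, a shell of proteins crosslinked by transglutaminases. Sprr proteins are short, proline-rich bridges that are joined to loricrin and other envelope proteins, and different Sprr genes are known for different epithelia. Lce proteins are small, cysteine-rich and are added late, in the uppermost living layers. Both families lie in the epidermal differentiation complex, a gene cluster that also holds loricrin (Lor), filaggrin (Flg) and involucrin (Ivl).

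All mice were C57BL/6J, 2 months old and carried K5-tTA/pTRE H2B-GFP, so cells with an active keratin 5 promoter made a histone-GFP label until doxycycline stopped it and each division diluted it. Doxycycline was given for 2 weeks before skin and for 10 days before oral tissue was taken, and no group lacked the transgenes or the drug. Cells that kept the label (LRC, called slow-cycling) and cells that did not (nLRC, fast-cycling) were sorted separately from basal layers: 3 libraries of each kind for back and for tail, and 2 of each kind for palate and for tongue. The back spinous layer was split in the same way (n = 3 each). Back granular layer, back bulge and tail bulge, the bulge being the hair follicle stem cell niche, gave 3 libraries each. Whether a group's libraries are from different animals is not in the labels, so each p measures the spread between libraries, which may be technical. In sorted bulk RNA, fewer cells of a type and less RNA per cell cannot be told apart.

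The measures are total reads per gene, used in the tests, and TPM, a level per transcript length. Depth, as the sum of gene reads, ran from 9785944 to 20560481 over the back libraries, from 8421582 to 14093720 over tail, from 11680595 to 15641556 over palate and from 11847897 to 13034075 over tongue. The layer markers did not follow every label. Krt10, a keratin of suprabasal cells, stood at 18012 to 29333 TPM in spinous LRC and 18921 to 24672 TPM in granular libraries, but at 3142 to 7018 TPM in spinous nLRC, which overlapped the 3285 to 5588 TPM of the basal libraries. Back bulge 1 held 119 TPM of Lor and 3507 TPM of Krt10, against 0.35 and 3.22 TPM of Lor and 551 and 83.3 TPM of Krt10 in the other bulge libraries. Back bulge 2 had the lowest TMM factor (0.5), followed by palate nLRC 2 (0.666) and tail bulge 3 (0.779).

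All 36 members lie on chromosome 3 between 92215799 and 93019060, a span of 803.3 kb (GENCODE vM21, GRCm38). Along the cluster, readable and unread members formed runs. The 4 genes at one end (Sprr2a1 to Sprr2b) reached 10 reads in at least 1 library. The next 7, Sprr2d, Sprr2e, Sprr2f, Sprr2g, Sprr2h, Sprr2i and Sprr2k, did not reach 10 reads in any of the 35 libraries. They were followed by 10 neighbours with more reads (Sprr1b to Lce1d), then by a mixed stretch of Lce1 genes, then by 6 Lce3 genes that all stayed under 10, and at the far end by Lce1m. In all 18 members had too few reads to be read (7 Sprr2 genes, 6 Lce3 genes, and Lce1e, Lce1g, Lce1h, Lce1j and Lce1k), with at most 9 reads in any library, and Lce3d had none. Sprr2g is annotated as a polymorphic pseudogene. Just inside the limit lay Sprr2b, at most 11 reads, and Lce1i, at most 13, and just outside it Lce1h at 9 reads.

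**Figure D1:**
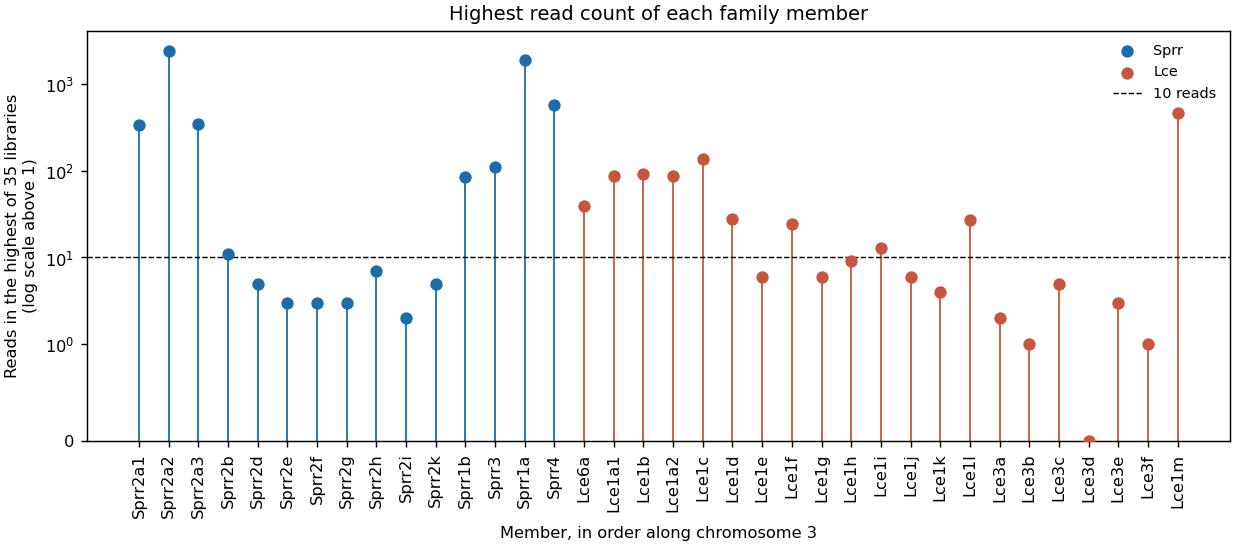
Reads of each of the 36 members in its highest library (vertical axis, log scale above 1), in order along chromosome 3, with a dashed line at 10 reads. The run from Sprr2d to Sprr2k and the Lce3 genes stay under the line, while Sprr2a2 reaches 2391 reads and Sprr1a 1845.

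Some copies are so alike that reads cannot be assigned to one of them with confidence. Of the 50-base words in the Sprr2a1 transcript 96.3% also occur in another member's transcripts, as do 96.5% of those of Sprr2a2 and 61.1% of those of Sprr2a3. The Sprr2a2 gene model is 40805 bases long, overlaps Sprr2a1 on the same strand by 5992 bases and overlaps 2 further annotated genes on the other strand. The 3 Sprr2a copies are therefore uncertain as single genes. In 4 libraries Sprr2a2 had reads, up to 29, at a TPM of 0, so those reads added nothing to the level of its transcript. The same held for Sprr4 in 6 libraries, with up to 30 reads. The Lce1 genes other than Lce1m share 9.12 to 25.4% of their words, and Sprr1a, Sprr1b, Sprr3, Sprr4, Lce6a and Lce1m share none with any other member.

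The promoters of the members that carry the results are shown with 1 gene of the unread run, Sprr2d, for comparison. RefSeq windows were found for 34 of the 36 members (build GRCm38.p6), and the 250 bases before each RefSeq start are given 5′ to 3′. For 30 of the 34, the bases just after the window were found in a GENCODE transcript of that gene. Capitals mark matches to the AP-1 site TGANTCA and the TATA box TATAAA, each searched on both strands.
Sprr1a, chr3:92485882-92486131, minus strand: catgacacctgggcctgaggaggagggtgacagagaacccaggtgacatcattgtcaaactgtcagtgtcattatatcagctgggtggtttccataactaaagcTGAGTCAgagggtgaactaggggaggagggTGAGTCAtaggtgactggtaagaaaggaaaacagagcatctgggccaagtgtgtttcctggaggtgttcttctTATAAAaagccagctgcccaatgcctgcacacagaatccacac
Sprr1b, chr3:92438780-92439029, minus strand: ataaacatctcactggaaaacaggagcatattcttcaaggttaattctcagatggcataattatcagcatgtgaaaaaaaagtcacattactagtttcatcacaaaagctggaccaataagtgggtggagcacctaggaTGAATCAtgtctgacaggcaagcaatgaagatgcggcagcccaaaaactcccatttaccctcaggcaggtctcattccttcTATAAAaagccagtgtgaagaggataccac
Sprr3, chr3:92458721-92458970, minus strand: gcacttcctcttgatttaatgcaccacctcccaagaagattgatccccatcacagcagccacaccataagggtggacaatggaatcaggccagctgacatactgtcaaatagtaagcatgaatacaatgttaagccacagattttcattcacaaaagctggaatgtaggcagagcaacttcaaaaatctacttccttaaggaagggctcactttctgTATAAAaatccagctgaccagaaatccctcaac
Sprr4, chr3:92500494-92500743, minus strand: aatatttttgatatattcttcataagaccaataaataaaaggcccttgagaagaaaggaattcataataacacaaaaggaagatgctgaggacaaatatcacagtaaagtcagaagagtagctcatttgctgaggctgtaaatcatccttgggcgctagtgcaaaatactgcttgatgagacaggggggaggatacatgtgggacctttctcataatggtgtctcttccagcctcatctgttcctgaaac
Lce1m, chr3:93019062-93019311, minus strand: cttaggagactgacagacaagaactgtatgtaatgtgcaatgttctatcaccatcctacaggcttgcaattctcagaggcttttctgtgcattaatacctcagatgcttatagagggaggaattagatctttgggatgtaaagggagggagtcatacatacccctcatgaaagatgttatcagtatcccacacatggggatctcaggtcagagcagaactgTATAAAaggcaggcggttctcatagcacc
Sprr2d, chr3:92338890-92339139, plus strand: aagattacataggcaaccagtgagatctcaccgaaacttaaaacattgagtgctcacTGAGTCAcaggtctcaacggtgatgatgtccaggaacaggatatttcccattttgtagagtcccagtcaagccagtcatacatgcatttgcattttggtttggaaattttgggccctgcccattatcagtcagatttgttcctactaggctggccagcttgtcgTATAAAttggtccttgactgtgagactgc

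The Sprr windows hold these motifs more often than promoters at large. An AP-1 match stood in 9 of 14 Sprr windows (64.3%) and in none of 20 Lce windows, against 6.75% of 32851 windows of all genes. TATAAA stood in 10 of 14 Sprr windows (71.4%) and 4 of 20 Lce windows (20%), against 12.4% of all windows. These shares count a match at any position and on either strand. The Sprr matches lie 29 to 43 bases before the start, and those of Lce1d and Lce1m 30 and 29. Those of Lce6a and Lce3e lie 218 and 243 bases before it, on the other strand. Some Sprr2 windows are much alike (Sprr2d and Sprr2e 88% identical), so the windows are not independent. A grainyhead-type site, AACCNGTT, was in none of the member windows and in 1.79% of all. The unread Sprr2 genes carry both motifs: of the 7, the 6 with a window have an AP-1 match and TATAAA, whose first base lies 29 bases before the start in each. Sprr1a has 2 AP-1 matches and Sprr1b has 1, while Sprr3 has only the TATA box and the Sprr4 window holds neither. The Sprr4 gene model is only 231 bases long, without an intron. Whether its window lies at the start of transcription is therefore uncertain, and its lack of motifs cannot be compared with the others. The Sprr2a1 and Sprr2a2 windows are identical over all 250 bases, and Sprr2a3 matches them over the 222 bases that align. None of the 3 windows holds any of the motifs, but none ends at the GENCODE start of its gene. The windows end at 92215834, 92250646 and 92285303, and the genes begin at 92215799, 92215920 and 92285417. The missing motifs therefore cannot be read as a difference from the other Sprr2 promoters. A match is a description of letters, and no match says only that those letters are not in this window.

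By group mean TPM the highest were Sprr1a (505), Lce1m (83.1), Sprr4 (74.5), Lce1c (30.9), Lce1b (21.4), Lce1a1 (19.2) and Lce1a2 (18.6), all in the back granular layer. Sprr2a2 (80.8), Sprr2a1 (12.9) and Sprr2a3 (11.1) were highest in palate nLRC, Sprr1b (15.3) in tail LRC and Sprr3 (8.35) in tongue LRC. The remaining Lce1d, Lce1f, Lce1i, Lce1l and Lce6a peaked in granular or spinous libraries at 2.48 to 5.39 TPM, and Sprr2b at 1.03 TPM in tail nLRC. Within the basal layer, the 21 Lce genes together had 0 to 9 reads in an oral library, 5 to 34 in a tail library and 5 to 170 in a back library. Tail and back overlapped only through the back LRC and nLRC libraries numbered 3, with 5 reads each. The other back basal libraries had 49 to 170. The highest sum, 979 reads, was in a granular library, a layer that was sorted only from back skin.

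**Figure D2:**
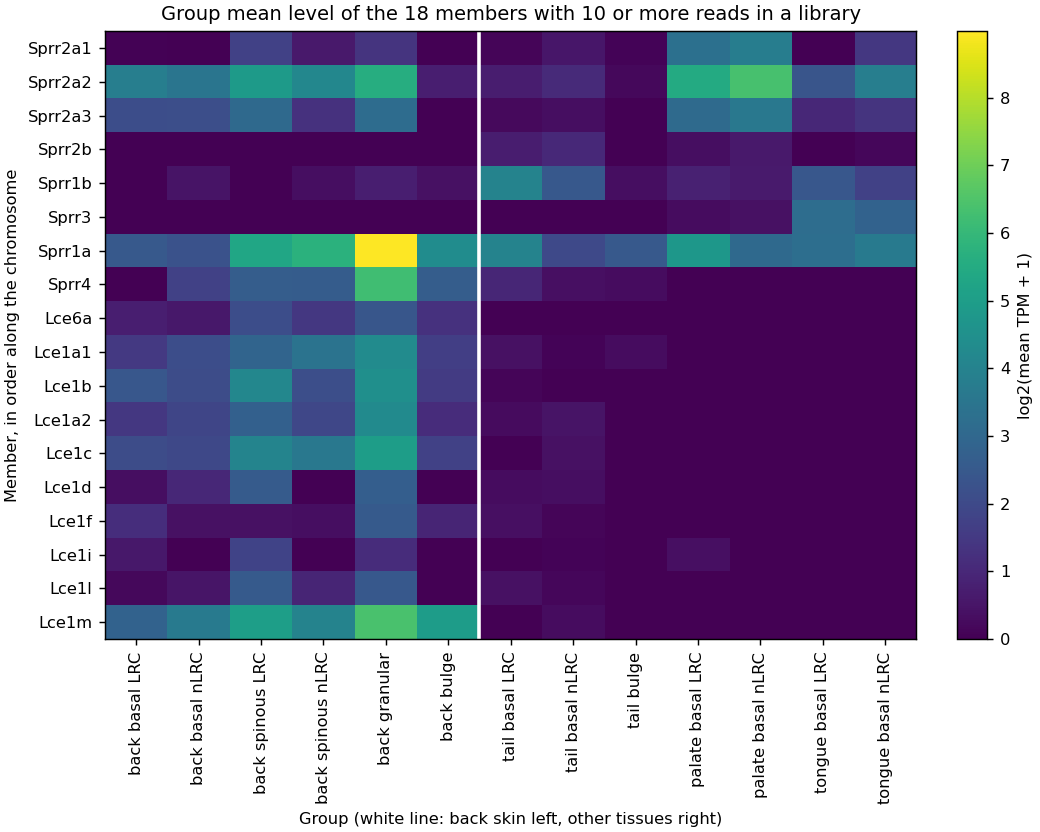
Group mean levels, log2(mean TPM + 1), of the 18 readable members (rows, in chromosome order) in the 13 groups (columns, back skin left of the white line). Sprr1a, Sprr4, Lce1m and Lce1c are brightest in back granular layer, the Sprr2a genes in palate, Sprr1b in tail and Sprr3 in tongue. Back tables and the others list different genes, so colours are best compared on one side of the line.

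Sprr1a, an envelope bridge protein known for its induction in differentiating keratinocytes, rose at both steps outward in back skin. Its reads in libraries 1, 2 and 3 were 9, 11 and 15 in basal LRC and again 9, 11 and 15 in basal nLRC. They were 54, 166 and 44 in spinous LRC, 99, 170 and 120 in spinous nLRC, and 1244, 1845 and 732 in granular layer. No library of one layer overlapped the next. The mean level went from 4.68 ± 1.24 TPM (SD, n = 3) in basal LRC and 3.84 ± 1.05 in basal nLRC to 39.0 ± 31.0 in spinous LRC, 52.6 ± 12 in spinous nLRC and 505 ± 243 in granular layer. Spinous over basal layer gave a log2 fold change of 3.40 ± 0.39 (SE, edgeR adjusted p = 6.32e-05), and granular over spinous layer 3.47 ± 0.39 (adjusted p = 3.85e-04). The step from basal to spinous was 2.99 within LRC (adjusted p = 0.00364) and 3.82 within nLRC (adjusted p = 0.00111), so the spinous nLRC libraries, whose Krt10 overlapped the basal ones, stood apart from them in Sprr1a. The same libraries held more of other markers: 7 sebocyte markers summed to 2703 to 6546 TPM in spinous nLRC, 270 to 395 in spinous LRC and 150 to 548 in basal libraries, and 5 upper follicle markers to 3783 to 4153, 1076 to 3371 and 416 to 876 TPM. Their part in the Sprr1a values was not tested. Sprr1a made up 73.3 to 84.6% of the summed Sprr TPM in granular libraries and 9.4 to 51.1% in basal ones.

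Sprr4, a small and distant Sprr family member, was close to a granular gene. Its reads were 409, 561 and 479 in granular layer. In spinous layer they were 10, 27 and 7 in LRC and 9, 41 and 11 in nLRC. At least 1 library of each spinous group had its reads at a TPM of 0. Basal libraries had 0 to 9 reads, back bulge libraries 0 to 30, and tail and oral libraries 0 to 4. Every granular library lay far above every spinous one. Granular over spinous layer gave a log2 fold change of 4.75 ± 0.68 (SE, adjusted p = 0.00118), which remained past the threshold in all 9 fits that left out 1 library but not without the 6 back libraries numbered 3 together (4.41, adjusted p = 0.109). Spinous over basal layer gave 2.32 ± 0.70 (adjusted p = 0.0479). That call rested on most libraries: it was lost in 9 of 12 fits that left out 1, namely basal LRC 1 or 3, basal nLRC 1, 2 or 3, spinous LRC 1 or 2, or spinous nLRC 2 or 3, with adjusted p up to 0.173. Without basal LRC 2 it was 3.09 and still called. It was lost too with limma on log2(TPM + 1) (adjusted p = 0.579) and within LRC (0.294) or nLRC (0.195) alone.

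**Figure D3:**
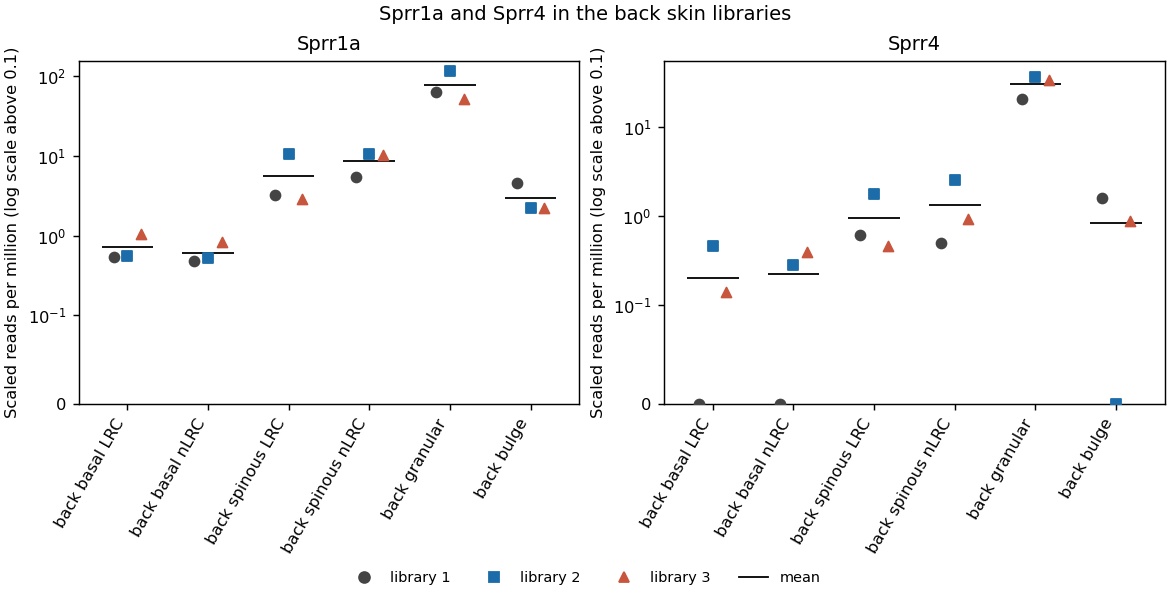
Scaled reads, as counts per library size after TMM scaling (vertical axes, log scale above 0.1) of Sprr1a and Sprr4 in the 18 back skin libraries, with the mean as a line. Sprr1a climbs in 2 steps from basal to granular layer without overlap, while Sprr4 separates the granular libraries (409 to 561 reads) from all others.

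Sprr1a and Sprr4 were 2 of the 12 members tested in each of these layer comparisons, and the only ones called. Spinous against basal layer called 9.07% of all 16574 genes tested and granular against spinous layer 4.01%. The median log2 fold change of the 12 members was 1.41 for spinous over basal (0.01 over all genes) and 1.27 for granular over spinous (-0.01 over all genes), and in the second all 12 were positive. The 12 are the members that passed the low-count filter, which granular reads can help a low member to pass. Lce1f, for example, reached 10 reads in only 3 libraries and was highest, at 24, in granular layer. The 3 Sprr2a copies, which share sequence, are also among the 12. The medians and signs are therefore neither free of the filter nor independent. The granular libraries also differed in other markers. The 5 upper follicle markers, all detected, summed to 13069 to 20428 TPM there and to 1076 to 4153 TPM in spinous libraries, and the 9 granular markers found in the tables to 694 to 1997 TPM against 117 to 479. Their part in the Sprr results was not tested.

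The Sprr2a copies changed less and varied more between libraries of a layer. Sprr2a2 had 48, 279 and 108 reads in basal LRC, 28, 309 and 57 in basal nLRC, 126, 390 and 243 in spinous LRC, 34, 370 and 99 in spinous nLRC, and 145, 681 and 433 in granular layer. Library 2 was the highest in each of these groups, and the layers overlapped. The log2 fold changes were 0.88 ± 0.70 (SE, adjusted p = 0.591) for spinous over basal and 1.02 ± 0.81 (adjusted p = 0.644) for granular over spinous layer. Sprr2a1 had 1 read over the 6 basal libraries and 76 over the 6 spinous ones, all in libraries 2 and 3. As a ratio of scaled reads this is 88.5 (95% counting interval 15.4 to 3543), and the test gave adjusted p = 0.0864 (0.0170 without the low-count filter). Because the copies share their sequence, which of them these reads belong to is uncertain. Sprr1b had 0 to 5 reads in every back library, and Sprr3 and Sprr2b had none.

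The Lce proteins are added late to the envelope, and Lce1m and Lce1c, the Lce genes with the highest TPM, were highest in the granular layer but did not pass the test. Lce1m had 282, 458 and 23 reads in granular layer, 138, 110 and 6 in spinous LRC, 25, 120 and 0 in spinous nLRC, 25, 30 and 0 in basal LRC and 57, 71 and 0 in basal nLRC. In each group the third library was far below the others. Lce1c showed the same order, with 61, 137 and 11 reads in granular layer, 17, 72 and 4 in spinous LRC, 12, 66 and 1 in spinous nLRC, 10, 12 and 0 in basal LRC and 3, 26 and 0 in basal nLRC. Granular over spinous layer gave log2 fold changes of 1.93 ± 1.27 (SE, adjusted p = 0.534) for Lce1m and 1.23 ± 1.17 (adjusted p = 0.724) for Lce1c, and spinous over basal layer 1.42 ± 1.14 (adjusted p = 0.603) and 2.01 ± 1.06 (adjusted p = 0.325). Same-numbered libraries deviated together, and with the number as a block Lce1m passed for granular over spinous layer (2.33, adjusted p = 0.0408) and Lce1c for spinous over basal layer (1.95, adjusted p = 0.0404). Of 7 Lce members tested none was called without the block in either comparison.

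Library 3 was low in the summed Lce level but mostly not in the summed Sprr level. Summed Lce TPM was lowest in library 3 in all 6 back groups: 22.5 against 164 and 409 in granular layer, 13.6 against 89.8 and 183 in spinous LRC, 8.02 against 27.5 and 100 in spinous nLRC. In the basal groups it was 0.97 against 23.2 and 38.2 in LRC and 0 against 29.9 and 47.9 in nLRC. Summed Sprr TPM was lowest in library 3 in 1 of the 6 groups, and Sprr1a and Sprr4 in 2 each. Lor, the main envelope protein, followed the Lce genes: it stood at 13.1 TPM in granular library 3 against 112 and 250 in the others, and was lowest in library 3 in 6 of 6 groups. So was Flg, at 19.2 TPM against 48.3 and 166 in granular layer. Krt10 was lowest in library 3 in 3 of 6 groups, with 18921 TPM in granular library 3 against 24672 and 21047. Ivl, another envelope precursor, was lowest there in 4 of 6 groups. What the number stands for is not in the labels, and a cause was not tested. Without the libraries numbered 3 no Lce member was called in either layer comparison, and Sprr1a remained called in both.

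**Figure D4:**
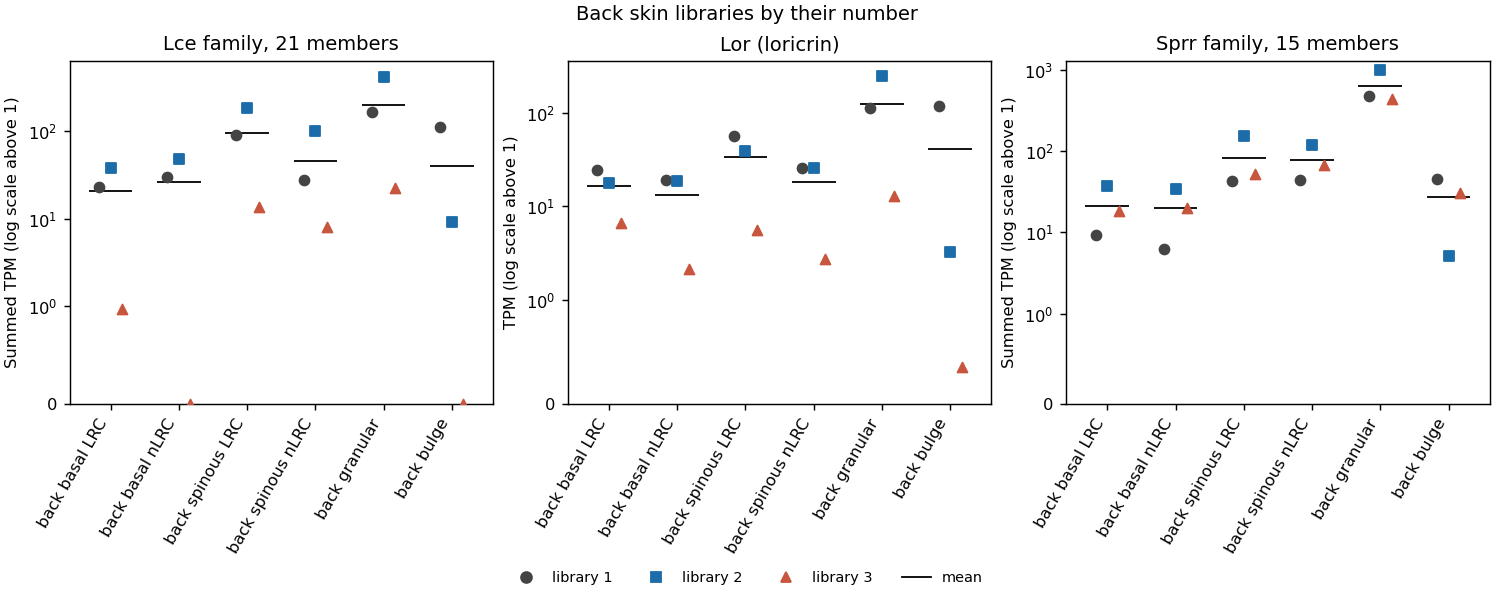
Summed TPM of the 21 Lce genes, TPM of Lor and summed TPM of the 15 Sprr genes (log scale above 1) in the 18 back skin libraries, marked by library number, with the group mean as a line. Library 3 is the lowest for Lce and Lor in all 6 groups and for Sprr in 1.

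Without the library number as a block, label retention made no called difference among the members in back skin. In the basal layer 0 of 12 members tested were called for LRC against nLRC (0.235% of all genes), none had an unadjusted p under 0.05, and DESeq2 and limma on log2(TPM + 1) called none either. In the spinous layer 0 of 12 were called, again with none under an unadjusted 0.05 and none by DESeq2 or limma, although 15.5% of all genes were. Sprr1a there gave -0.63 ± 0.47 (SE, adjusted p = 0.415), and passed when spinous LRC 2 was left out (-1.49, adjusted p = 0.0432). Sprr2a3 had 23, 110 and 45 reads in spinous LRC and 0, 38 and 3 in nLRC, so every LRC library exceeded the nLRC library of its number. Its log2 fold change of 2.11 ± 1.37 (adjusted p = 0.342) passed with the number as a block (2.86, adjusted p = 0.0439), which made it the 1 member called in that fit. Lce1m gave 0.84 ± 1.56 (adjusted p = 0.775). The test of whether the LRC effect differed between spinous and basal layer called 0 of 12 members (0.392% of all genes), with none under an unadjusted 0.05 and none by DESeq2 or limma.

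In the back bulge Sprr1a was higher than in the interfollicular basal layer. It had 85, 11 and 38 reads, against 9 to 15 in the 6 basal libraries, so bulge library 2 overlapped the basal range in reads. Bulge over basal layer gave 2.23 ± 0.46 (SE, log2, adjusted p = 0.00158), and values stayed between 1.75 and 2.43 when any of 9 libraries was left out. On limma's log2(TPM + 1) it was 1.51 with adjusted p = 0.0654. Sprr2a3 went the other way: it had no reads in any bulge library and 222 over the 6 basal libraries (0, 91 and 12 in LRC, 9, 81 and 29 in nLRC), so it was at least 9.26-fold lower against a floor of 3 reads per library (adjusted p = 0.0276). That call was lost without bulge 1, bulge 3 or basal LRC 2 (adjusted p up to 0.0747) without the libraries numbered 3 (0.175) and with limma (0.0955).

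These 2 of 12 members were called against 26.3% of all genes. Sprr4, with 30, 0 and 15 bulge reads, missed the threshold (2.10 ± 0.82, adjusted p = 0.0699), as did Sprr2a2, with 10, 22 and 5 (-2.44 ± 1.09, adjusted p = 0.111). Both passed without bulge 2, at adjusted p = 0.0307 and 0.0269, and Sprr4 also without basal LRC 2 (0.0373). Of the Sprr4 reads, the 30 in bulge 1 and all those in basal LRC stood at a TPM of 0, so they added nothing to the level of its transcript. Lce1m had 211, 16 and 0 bulge reads and gave 1.72 ± 1.32 (adjusted p = 0.363), but -0.20 without bulge 1. Bulge 1 is also the library with the granular and spinous markers given above: the 9 granular markers summed to 540 TPM in it against 36.6 and 46.3 in the others. Its Sprr1a level, 40.5 TPM, was the highest of the 3 (3.9 and 14.6 in the others), and without bulge 1 the Sprr1a difference was still called. Members of other marker lists were called in the bulge too. Against the basal libraries, the 5 upper follicle markers summed to 3873 to 7372 TPM against 416 to 876 (4 of 5 called higher), the 5 wound or stress markers to 379 to 2303 against 19.1 to 65.5 (1 of 3 tested), and the 7 sebocyte markers to 28.0 to 920 against 150 to 548 (4 of 7). The wound or stress sum was nearly all Krt6a, at 357 to 2269 TPM. Krt16 (13.0 to 31.8 TPM against 11.4 to 59.8) and Krt6b (1.15 to 2.41 against 1.55 to 5.96) overlapped the basal libraries. S100a8 and S100a9 had no bulge reads. The 4 endothelial markers summed to 8.05 to 319 TPM against 0.08 to 0.66 (4 of 4) and the 5 melanocyte markers to 6.77 to 344 against 2.16 to 13.2 (5 of 5). Their part in the bulge values was not tested.

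The other genes of the envelope and its differentiation programme, a list of 30 (21 tested in back skin), moved with the layers in part. This list, called the envelope list, also holds keratins, such as Krt10 and the oral keratin Krt13, and S100 genes. For granular over spinous layer 5 rose and 0 fell (4.01% of all genes were called), with a median log2 fold change of 2.16 against -0.01 over all genes. Ivl rose by a log2 fold change of 2.71 ± 0.37 (SE, adjusted p = 9.60e-04), as did Tgm1, the membrane-bound transglutaminase, by 2.90 ± 0.61 (adjusted p = 0.0120). Flg (2.98 ± 0.85, adjusted p = 0.0596) and Lor (2.33 ± 0.97, adjusted p = 0.230) had similar values with wider errors. For spinous over basal layer 6 rose and 0 fell (9.07% of all genes), Ivl (1.56 ± 0.34, adjusted p = 0.00662) and Krt10 (1.29 ± 0.39, adjusted p = 0.0468) among them. For bulge against basal layer 2 rose and 4 fell, a share near the 26.3% of all genes called, with Krt10 at -1.90 ± 0.52 (adjusted p = 0.0115).

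In tail skin Sprr1a and Sprr1b, close relatives that share no 50-base word, had the highest TPM of all members. Sprr1a had 88, 51 and 51 reads in LRC and 21, 10 and 10 in nLRC. Sprr1b had 66, 84 and 44 in LRC and 14, 20 and 24 in nLRC. For both genes every LRC library lay above every nLRC library. In TPM, Sprr1a was 15.2 ± 2.62 (SD, n = 3) in LRC and 2.97 ± 0.673 in nLRC. The log2 fold changes, 1.85 ± 0.61 (SE, adjusted p = 0.125) for Sprr1a and 1.41 ± 0.52 (adjusted p = 0.159) for Sprr1b, did not pass the test over all genes (unadjusted p = 0.0130 and 0.0221).

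So 0 of 3 members tested were called in tail LRC against nLRC, where 4.6% of all genes were, and the tools differed on Sprr1a. With the library number as a block, which pairs these libraries, Sprr1a was called (1.95, adjusted p = 0.0252). It was also called by DESeq2 (1.85, adjusted p = 0.0441) and without the low-count filter (1.78, adjusted p = 0.0296), and both genes were called by limma on log2(TPM + 1), at adjusted p = 0.0180 and 0.0213. The 6 spinous markers summed to 5907 to 6658 TPM in tail LRC and 2766 to 3840 in nLRC, and the 5 upper follicle markers to 437 to 794 against 121 to 155. The 7 bulge markers, of which Krt15 is also on the basal list, summed to 1881 to 3204 TPM in LRC and 364 to 616 in nLRC (5 of 7 called higher), while the 9 granular markers overlapped (59.3 to 152 against 68.1 to 106). Their part in the Sprr values was not tested. Sprr2a2 had 58, 71 and 26 reads in LRC and 62, 57 and 29 in nLRC (-0.30 ± 0.45, adjusted p = 0.717), and its level was only 0 to 2.00 TPM. Of the 30 genes of the envelope list 19 were tested, 1 rose and 0 fell.

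The tail bulge nearly lacked Sprr1b. It had 1, 3 and 0 reads there, against 14 to 84 in the 6 basal libraries, a log2 fold change of -4.30 ± 0.65 (SE, adjusted p = 9.16e-04) that stayed called in all 9 fits that left out 1 library (-5.54 without bulge 2). Sprr1a did not follow it: with 44, 15 and 3 bulge reads it overlapped the basal libraries (-0.35 ± 0.53, adjusted p = 0.690), and its value turned to 0.06 without tail bulge 3 and to 0.58 against nLRC alone. This was 1 of 3 members called, against 24.6% of all genes. Sprr2a2 gave -0.88 ± 0.41 (adjusted p = 0.158). The envelope list leaned the same way as Sprr1b, with 10 of 19 genes lower and 3 higher in the bulge, Ivl at -2.48 ± 0.39 (adjusted p = 0.00114) and Krt10 at -5.03 ± 0.19 (adjusted p = 1.49e-07).

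Palate carried the highest Sprr2a reads of any tissue. Sprr2a2 had 829 and 1088 reads in palate LRC and 1184 and 2391 in nLRC, Sprr2a1 201 and 189 in LRC and 237 and 334 in nLRC, and Sprr2a3 108 and 204 in LRC and 128 and 345 in nLRC. Tongue had 87 and 152 (LRC) and 277 and 208 (nLRC) of Sprr2a2, 0 and 0 against 24 and 32 of Sprr2a1, and 4 and 34 against 24 and 27 of Sprr2a3. Every palate library lay above every tongue library for each of the 3 copies. Tongue against palate gave log2 fold changes of -7.08 ± 0.61 (SE, adjusted p = 3.11e-04) for Sprr2a1, -3.07 ± 0.46 (adjusted p = 0.00329) for Sprr2a2 and -3.28 ± 0.68 (adjusted p = 0.0163) for Sprr2a3. The Sprr2a3 call was lost without palate LRC 2 or tongue nLRC 2 (adjusted p = 0.0513 and 0.0512) and within LRC or nLRC alone (0.161 and 0.0802), and it was -2.40 without palate nLRC 2 and -4.44 without tongue LRC 2. Sprr2a1 and Sprr2a2 stayed called without any 1 of the 8 libraries, with Sprr2a2 at -2.36 without palate nLRC 2. Of the 5 wound or stress markers 3 were lower in tongue than palate and 0 higher, against 9.62% of all genes called. Krt16 stood at 184 to 439 TPM in palate and 27 to 71 in tongue, while Krt6a overlapped (1700 to 2287 against 1183 to 2553). Their part in the Sprr2a values was not tested.

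Sprr3, known as the Sprr gene of inner stratified epithelia such as esophagus and tongue, had the opposite pattern. It had 22 and 111 reads in tongue LRC and 37 and 43 in nLRC, 4 and 0 in palate LRC, 4 and 2 in palate nLRC, and 0 or 1 in every skin library. Tongue over palate gave 4.43 ± 0.76 (SE, log2, adjusted p = 0.00685), and within nLRC alone 3.61 (adjusted p = 0.111). Of the 213 tongue reads 111 were in LRC 2, without which the value was 3.57, and without palate LRC 1 it was 6.36. The call held in all 8 fits that left out 1 library. With these, 4 of the 6 members tested were called, 3 lower and 1 higher in tongue, against 9.62% of all genes. The 3 lower ones are the Sprr2a copies, whose shared sequence means they cannot be counted as separate calls with confidence. Sprr1a overlapped between the tissues (259, 45, 73 and 18 reads in palate, 16, 72, 44 and 58 in tongue), and Sprr1b gave 2.08 ± 0.88 (adjusted p = 0.180). In the envelope list 6 of 21 genes were higher in tongue and 3 lower. Krt13, an oral keratin, was higher by 2.36 ± 0.42 (adjusted p = 0.00830) and Tgm1 by 2.35 ± 0.24 (adjusted p = 3.87e-04).

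Between LRC and nLRC no oral comparison called a member. In palate 0 of 6 members were called, where edgeR called 0% of 14923 genes (1082 at an unadjusted p under 0.05, 13 by DESeq2, 0 by limma), and Sprr2a1 and Sprr2a2 were the 2 members under an unadjusted 0.05. Sprr2a2 gave -1.49 ± 0.60 (SE, adjusted p = 0.640) and was called without palate nLRC 1 (-2.18, adjusted p = 0.0262). The 4 palate libraries differed among themselves. Sprr1a stood at 43.8 and 7.85 TPM in LRC and 12.1 and 2.71 in nLRC, and Krt13 at 2324 and 936 in LRC and 1884 and 272 in nLRC. For both genes LRC 1 was highest and nLRC 2 lowest, and for Sprr2a2 it was nLRC 2 that was highest (110 TPM against 36.8 to 51.4). Among wound or stress markers, S100a8 and S100a9 were also highest in palate nLRC 2 (31.7 and 32.5 TPM) and lowest in LRC 1 (0.59 and 1.84). Krt6a was lowest in palate nLRC 2 (1700 TPM). Their part in the Sprr2a2 values was not tested. Only 2 libraries per group were made.

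In tongue 0 of 6 members were called, against 0.0067% of all genes. Sprr2a1 was absent from both LRC libraries and had 24 and 32 reads in nLRC, at least 9.38-fold, with adjusted p = 0.188 (unadjusted p = 4.24e-04). DESeq2 called it (adjusted p = 0.00122), as did the fit without the low-count filter (1.41e-13) and the fit without palate nLRC 2, whose spread the tongue test shares (0.0161). Sprr2a2, whose sequence Sprr2a1 nearly repeats, lay below nLRC in both LRC libraries too, at -1.02 ± 0.63 (adjusted p = 1). Sprr3 gave 0.79 ± 0.82 (adjusted p = 1) and -0.95 without tongue LRC 2.

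The basal layers of the tissues were then compared in pairs. Doxycycline was given for 10 days before palate and tongue and for 2 weeks before tail. Oral tissue and length of doxycycline therefore cannot be told apart against tail. The fit also held the back basal libraries, whose tables list different genes, so scaling and spread were shared with them. Palate over tail was called for 5 of 7 members tested (26.9% of all genes): the Sprr2a copies were higher in palate by log2 fold changes of 6.18 ± 0.67 (SE, Sprr2a1, adjusted p = 7.21e-06), 4.79 ± 0.58 (Sprr2a2, 6.67e-06) and 6.10 ± 1.08 (Sprr2a3, 3.70e-04), and Sprr1b was lower by -3.27 ± 0.74 (adjusted p = 0.00391). Because the 3 Sprr2a copies share sequence, they cannot be counted as separate calls with confidence. Sprr1b had 1, 8, 7 and 0 reads in palate, and within nLRC alone its adjusted p was 0.101. Its value was -5.79 without palate nLRC 1 and -4.39 without palate LRC 2. All 3 Sprr2a calls held with any 1 library left out, but their sizes moved: Sprr2a1 was 6.86 without tail nLRC 2 and 8.06 without tail LRC 3, Sprr2a2 was 4.09 without palate nLRC 2, and Sprr2a3 was 8.37 without tail LRC 2, 8.87 without tail nLRC 2 and 5.23 without palate nLRC 2. The fifth, Sprr1a (1.29 ± 0.45, adjusted p = 0.0412), was lost in 6 of 10 fits that left out 1 library: tail LRC 2 or 3, tail nLRC 2 or 3, palate LRC 1 or palate nLRC 1, where without palate LRC 1 it was 0.55 (adjusted p = 0.423). Limma on log2(TPM + 1) gave 0.57 (adjusted p = 0.311). Tongue over tail was called for 2 of 7, the same share as the 28.6% of all genes. Sprr3 had 213 reads over the 4 tongue libraries and 1 over the 6 tail ones, a ratio of scaled reads of 310 (95% counting interval 55.0 to 12294, adjusted p = 1.10e-04). The fitted log2 value for Sprr3 was 7.20 without tongue LRC 2 and 9.04 without tail LRC 1, and stayed called in all 10 fits that left out 1 library. Sprr2a2 was higher by 1.72 ± 0.57 (adjusted p = 0.0308), a call lost without tail LRC 3, tail nLRC 3, tongue nLRC 1 or tongue LRC 2 (adjusted p up to 0.133) and within LRC or nLRC alone (0.243 and 0.0939). Sprr1b, with 10 to 37 reads per tongue library, was -1.19 ± 0.64 (adjusted p = 0.180). These comparisons and the tongue against palate one share libraries. In the envelope list 7 genes were higher and 8 lower in palate than tail, and 9 higher and 6 lower in tongue than tail, of 27 tested. Of the 5 wound or stress markers 3 were higher and 0 lower in palate than tail, and 2 higher and 1 lower in tongue than tail. Their part in the Sprr values was not tested.

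**Figure D5:**
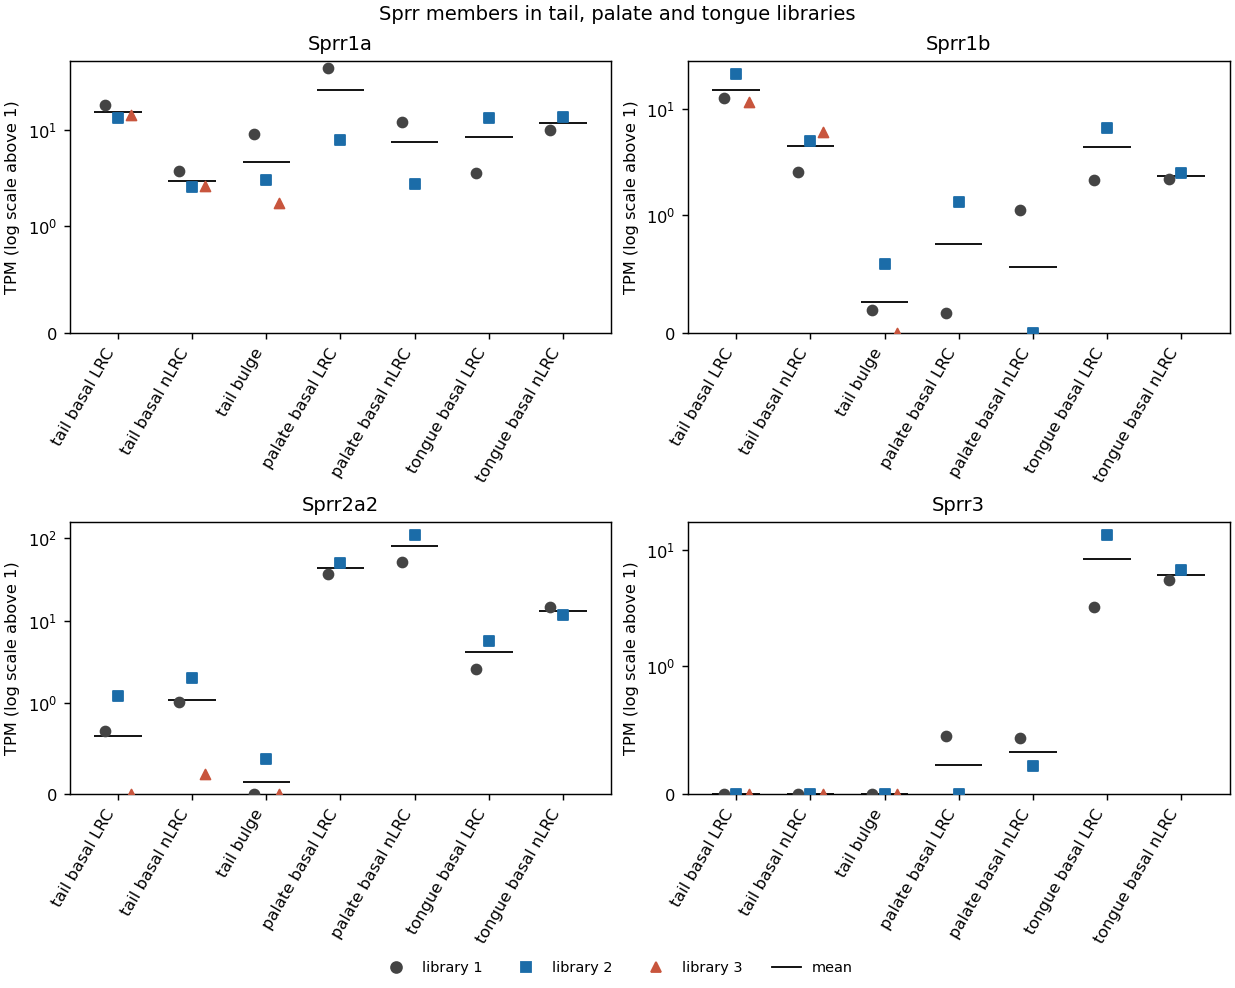
TPM (log scale above 1) of Sprr1a, Sprr1b, Sprr2a2 and Sprr3 in the 17 tail, palate and tongue libraries, marked by library number, with the group mean as a line. Sprr1b is highest in tail LRC and lowest in tail bulge and palate, Sprr2a2 is highest in palate, and Sprr3 is found in tongue.

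Tail and back basal layers were compared last, with a limit: the authors' tables for back skin list 53715 genes and those of the other tissues 49585, so tissue and processing cannot be told apart. The comparison called 58.3% of all genes and 5 of 7 members. Sprr2a1 and Sprr2a3, called in opposite directions, are copies that share sequence, so they cannot be counted as separate calls with confidence. Sprr1b, with 4 reads over the 6 back libraries and 252 over the 6 tail ones, was higher in tail by 7.04 ± 0.83 (SE, log2, adjusted p = 2.70e-06), and Sprr1a by 2.21 ± 0.45 (adjusted p = 4.40e-04). For Sprr1a limma on log2(TPM + 1) gave 0.62 (adjusted p = 0.119) and nLRC alone 1.40 (0.0912). Sprr2a1 had 26 tail reads and 1 back read, a ratio of scaled reads of 49.0 (95% counting interval 8.06 to 2010, adjusted p = 0.0139), which was lost without tail LRC 3 (adjusted p = 1). The fitted log2 value for Sprr2a1, 4.34 ± 1.37, was 5.11 without back LRC 3 and 3.69 without tail nLRC 2. Lce1m was lower in tail, with 4 reads against 183 (-5.14 ± 1.53, adjusted p = 0.0129), but with adjusted p = 0.294 in DESeq2 and 0.120 within nLRC alone. Without tail nLRC 1 it was -5.80. Sprr2a3 was lower by -2.59 ± 1.06 (adjusted p = 0.0454), a call lost in 7 of 12 fits that left out 1 library, namely back LRC 2, back nLRC 2 or 3, tail LRC 1 or 3, or tail nLRC 1 or 3 (adjusted p up to 0.272), and in DESeq2 (0.102). Its value ran from -1.50 without back LRC 2 to -4.83 and -5.33 without tail LRC 2 and tail nLRC 2. In reads, Sprr2a2 differed by less than its error (-0.46 ± 0.52, adjusted p = 0.463). In TPM it was lower in tail. It made up 1.89% of the summed Sprr TPM in tail LRC and 8.93% in tail nLRC, against 62.5 and 50.4% in back. The summed Sprr TPM averaged 33.6 and 12.2 in these tail groups and 21.4 and 20.2 in the back ones. Of 27 genes of the envelope list tested 11 were higher and 7 lower in tail, with Lor lower by -2.08 ± 0.50 (adjusted p = 0.00172).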

How the data were processed

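Sorted cells of skin and oral epithelium were sequenced as total RNA with a stranded low-input kit, per the labels' protocols. Per the submitters' processing notes the genome build was mm10. Aligner, counter, annotation and strand setting: not given in the sources used here. The authors deposited 1 table per library with whole-number counts (total gene reads), TPM and RPKM per gene, and the RPKM values deposited by the authors were not used. Reads of near-identical copies and of overlapping genes are therefore uncertain. Tables of back skin and of the other tissues list different genes.

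Counts were tested with edgeR 4.0.16 (R 4.3.3): TMM scaling, filterByExpr (minimum count 10, minimum total 15), quasi-likelihood test with group means, and Benjamini-Hochberg adjusted p under 0.05 over all genes. SE was derived from the F statistic (log2 fold change divided by its root). Fits held the 18 back, 9 tail, 8 oral or 20 basal libraries. On simulated counts, the fits were checked to recover changed genes. The changed genes were drawn from those with more reads, at a fixed spread between libraries. Recovery of members with few reads was not checked. Libraries of a group all differed by more than counting noise (lowest chi-square over its degrees of freedom, 23.1). Where a group had 0 reads, 3 reads in each of its libraries served as the floor, and ratios against few reads carry 95% counting intervals, which cover counting error only.

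Members with under 10 reads in every library were called too low and only named. Values in full are given for the 12 members with the highest group mean TPM and those called outside layer comparisons. Of the envelope list only Lor, Flg, Ivl, Krt10, Krt13 and Tgm1 are given with values. Members, lists and tests were chosen with earlier results of these data known. As alternatives, the tests were repeated with a block for the replicate number, with DESeq2 1.42.0, without the filter, with median-of-ratios scaling, within LRC or nLRC alone, and with each library left out. Chosen after seeing the data were limma 3.58.1 on log2(TPM + 1) with TPM of at least 1, and fits without the back libraries numbered 3, back bulge 2, tail bulge 3 or palate nLRC 2.

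Same-numbered libraries deviated from their group means together, at correlations of 0.109 to 0.328 between spinous and basal, 0.151 to 0.324 between granular and spinous, 0.163 to 0.291 between spinous LRC and nLRC, 0.233 to 0.322 between basal LRC and nLRC of back skin and 0.326 to 0.585 of tail. All exceeded 0.1, which was taken as pairing by number. Pairs with bulge libraries did not all exceed it, and oral groups have only 2 libraries. Promoter windows are RefSeq's (GRCm38.p6) and positions GENCODE's (vM21).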

Additional observations from a re-analysis of the deposited data

How the results depend on the processing

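No called member changed sign under any alternative run, and Sprr1a kept its calls for spinous over basal and granular over spinous layer in all of them. Counts of called members moved as follows. With the replicate number as a block, spinous against basal layer called 3 members and granular against spinous layer 3 (2 each without it), spinous LRC against nLRC 1 and tail LRC against nLRC 1. In the bulge comparisons, where some same-numbered pairs correlated at 0.1 or less, the block gave 4 in back and 2 in tail, with Sprr2a2 called in tail (-0.86, adjusted p = 0.0400). The block was defined within a tissue and was not run between tissues. Without the low-count filter the counts were 4 for back bulge, 1 for tail LRC, 3 for palate LRC, 2 for tongue LRC, 4 for tongue against tail and 10 for tail against back. DESeq2 called 1 in tail LRC and 1 in tongue LRC. Limma on log2(TPM + 1) called 1 for spinous against basal, 1 for back bulge, 2 for tail LRC, 4 for tongue against tail and 10 for tail against back. LRC groups alone called 1 for spinous against basal, 1 for tongue against tail and 3 for tail against back. nLRC groups alone called 1 for spinous against basal, 2 for tongue against palate, 3 for palate against tail, 1 for tongue against tail and 2 for tail against back. Without the back libraries numbered 3 spinous against basal, granular against spinous and back bulge each called 1, and without palate nLRC 2 in the fit tongue LRC called 1.

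With single libraries left out, calls ranged from 0 to 1 for spinous LRC, 1 to 2 for spinous against basal, 1 to 4 for back bulge, 0 to 2 for palate LRC, 1 to 3 for tongue against tail and 3 to 5 for tail against back. Signs turned for Lce1m in back bulge (-0.20 to 2.32 with 1 library left out, lowest without bulge 1), Sprr1a in tail bulge (0.58 against nLRC alone, and from -1.23 to 0.061 with 1 library left out, highest without tail bulge 3) and Sprr3 in tongue LRC (-0.95 to 1.58, lowest without tongue LRC 2), none of them called. The cause of these moves was not tested. For the 18 members under 10 reads no difference between groups could be read at this depth.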
